A study of Mus musculus with 12 samples.

Results

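The RNA and DNA sensors of innate immunity, with the adaptors, an effector kinase and a regulator that work with them, were examined as a group of 10 genes in melanoma tumors. The members were Ddx58, Ifih1, Dhx58, Zbp1, Mb21d1, Tmem173, Tlr3, Mavs, Eif2ak2 and Trim25, chosen by name from the known pathway, with earlier results of these data known. All 10 were among the 23420 genes of the count table, and all 10 passed the filter on low counts that left 13095 genes to test. RNA had been sequenced from 12 tumors of B16-F10, a pigmented melanoma cell line of the C57BL/6 strain, grown under the skin of male C57BL/6J mice with their own immune system. Mice entered the diets at 4 to 5 weeks of age. Obese mice had received a Western diet with added cholesterol for 15 weeks and nonobese mice a matching control diet, and both were then given 10 mg/kg of an antibody to PD-1 (clone 29F.1A12) or an isotype control antibody (clone 2A3). Each diet and antibody combination had 3 tumors, which gives 4 groups, named here by diet and then antibody. A single cell line was used, and each library came from frozen tumor tissue, which holds host cells beside the cancer cells. The labels number the tumors within a group without saying more of their origin, so P values measure the spread between these tumors.

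Cells detect viral or misplaced nucleic acid through receptors in the cytosol and in endosomes. RIG-I (gene Ddx58) and MDA5 (Ifih1) bind double-stranded RNA and signal through the mitochondrial adaptor MAVS, cGAS (Mb21d1) binds DNA and makes a cyclic dinucleotide that activates STING (Tmem173), and TLR3 reads double-stranded RNA in endosomes. These routes lead to type I interferon, and interferon in turn raises the transcription of many of the sensors through interferon-stimulated response elements (ISREs). In melanoma and other tumors these pathways act in the cancer cells and in infiltrating myeloid cells alike.

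The promoters of the members were searched for this element, because the values of several members moved together. A window of 300 bases around the start, from 250 before to 50 after it, was present in the RefSeq table (GRCm38.p6) for 7 of the 10 members, with Mb21d1 listed as Cgas. Dhx58, Zbp1 and Tmem173 were not matched. The ISRE core GAAANNGAA, on either strand and with overlapping matches counted, was found in 4 of these 7 members, against 8.56% of the 32851 windows in the table. The core of the gamma-activated site, TTCNNNGAA, was found in 1 of the 7, Eif2ak2 (TTCCCAGAA, first base at -178 from the start, apart from its ISRE cores), against 8.30% of all windows. The windows of Mb21d1, Tlr3 and Mavs held neither set of letters. The Tlr3 window belongs to a start inside the annotated gene. The stretches of 30 bases with the ISRE core matches follow, on the gene's strand and with the matches in capitals, to show how the elements sit in the 4 members that carry them.
Ddx58 (chr4:40239803-40239832, minus strand): ctgaggcagtTTCGATTTCctatggccagc
Ifih1, upstream of the start (chr2:62646348-62646377, minus strand): agaattcgcgTTCCCTTTCctgtttctcac
Ifih1, downstream of the start (chr2:62646206-62646235, minus strand): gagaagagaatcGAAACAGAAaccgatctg
Eif2ak2 (chr17:78882532-78882561, minus strand): ccgccggGAAAACGAAACAGAAgagaaccg
Trim25 (chr11:88999384-88999413, plus strand): gcccctcctgTTCAGTTTCgattccttcct
In Eif2ak2 the capitals cover 2 overlapping matches. A match of this kind is a description of the letters and does not show that a factor is bound.

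Libraries held from 14022929 to 33871843 counts on genes. The members' counts in a tumor ran from 26 for Zbp1 to 2709 for Tmem173, so all were measured well above single reads. Melanoma genes (Mlana, Pmel, Tyr, Tyrp1, Dct, Mitf and Sox10) summed to between 24720 and 30283 CPM (counts divided by the TMM-adjusted library size) across the 12 tumors, and all 7 were detected in every group, which fits the labeled cell line. None of these 7 genes had an unadjusted P below 0.05 in either comparison of anti–PD-1 with isotype, between diets under anti–PD-1 or in the difference of responses, whereas 1 was higher and 1 lower in obese mice under isotype.

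The members differed in abundance. Divided by the length of all exons, the mean level over the 12 tumors was highest for Tmem173, at 25.7 ± 3.42 (SD) CPM per kilobase, followed by Mavs at 19.1 ± 2.01. Trim25 at 8.79 ± 1.76 and Eif2ak2 at 7.66 ± 1.13 came next, then Ddx58 at 5.23 ± 1.80 and Tlr3 at 4.25 ± 0.852. The lowest levels per kilobase were those of Dhx58 (2.81 ± 1.71), Zbp1 (2.26 ± 2.46), Ifih1 (1.83 ± 0.776) and Mb21d1 (1.61 ± 0.334). Tmem173 was above Mavs in 12 of 12 tumors, with a mean difference of 0.42 ± 0.19 (SD) on the log2 scale, and Mavs above Trim25 and Eif2ak2 above Ddx58 in 12 of 12. The order of Trim25 and Eif2ak2 held in 9 of 12 tumors, that of Ddx58 and Tlr3 in 10, that of Tlr3 and Dhx58 in 11 and that of Dhx58 and Zbp1 in 9. Zbp1 exceeded Ifih1 in 5 of 12 tumors and Ifih1 exceeded Mb21d1 in 7, so the order at the low end was within the spread. These orders use the length of all exons, which for Ddx58 is 7.05 kb, against 3.87 kb for its longest transcript. Per kilobase of longest transcript, mean Ddx58 was above Eif2ak2 and Trim25 in the obese groups and below both in the nonobese groups. In obese isotype tumors these means were 9.40, 8.80 and 7.92 CPM per kilobase, in that order. In nonobese anti–PD-1 tumors they were 6.41, 8.49 and 8.02. The members also differed in how far they varied: the highest tumor exceeded the lowest 23.3-fold for Zbp1 and 5.89-fold for Dhx58, but 1.44-fold for Tmem173 and 1.36-fold for Mavs.

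**Figure D1:**
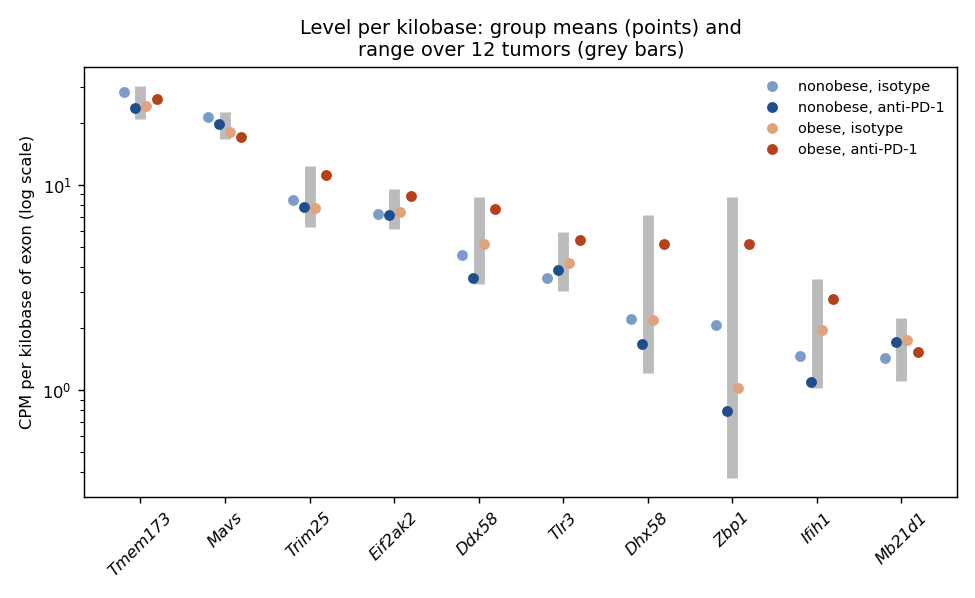
Level of each member in CPM per kilobase of exon on a log axis, with points for the 4 group means and grey bars for the range over 12 tumors. Tmem173 and Mavs lead with narrow ranges, whereas Zbp1 and Dhx58 span 23.3-fold and 5.89-fold.

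To see whether anti–PD-1 changed the sensors and whether diet altered that change, 5 comparisons were made with edgeR's quasi-likelihood test over all genes. These comparisons share groups with each other, so they are not independent. In nonobese mice, 2 of the 10 members were lower with anti–PD-1 at an unadjusted P below 0.05 (Ddx58 and Zbp1), against 3.59% of all genes tested. Only Zbp1 also passed a fold change of 2, against 2.31%. In obese mice, 6 of the 10 were higher with anti–PD-1 (Ddx58, Ifih1, Dhx58, Zbp1, Tlr3 and Trim25), against 4.30% of all genes. Of these 6, Dhx58 and Zbp1 passed a fold change of 2, against 2.24%. No member was higher in nonobese mice or lower in obese mice at that threshold.

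Between diets, more members passed among anti–PD-1–treated than among isotype-treated tumors. Among isotype-treated tumors, 1 of 10 members was lower in obese mice (Mavs), against 6.17% of all genes. Among anti–PD-1–treated tumors, 6 of 10 were higher in obese mice (the 6 named above), against 5.71%, and Mavs was lower, against 4.56%. A fold change of 2 was passed by 4 of the 6 (Ddx58, Ifih1, Dhx58 and Zbp1), against 3.69%. The response to anti–PD-1 differed between the diets at an unadjusted P below 0.05 for 5 members (Ddx58, Ifih1, Dhx58, Zbp1 and Trim25), against 7.01% of all genes in that direction. Dhx58 and Zbp1 passed a fold change of 2 in that difference, against 4.93%.

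After Benjamini-Hochberg adjustment over all genes, an FDR below 0.05 was reached by 2 members, Ddx58 and Ifih1, both in obese against nonobese anti–PD-1–treated tumors, where 0.382% of genes (50) reached it. In the 4 other comparisons edgeR gave an FDR below 0.05 to 0 genes of any kind, with 685 genes at an unadjusted P below 0.05 for the nonobese response, 991 for the obese response, 1739 for diet under isotype and 1687 for the difference of responses. DESeq2's Wald test gave an adjusted p below 0.05 to Dhx58 (0.0281) and Trim25 (0.0403) in the obese response, against 0.802% of all genes with an adjusted p, and to Ddx58 (0.0117), Zbp1 (0.0231) and Dhx58 (0.0302) in the difference of responses, against 2.16%. Between diets under anti–PD-1 its adjusted p was 3.03e-07 for Ddx58, 6.94e-06 for Ifih1, 0.000243 for Dhx58, 0.0174 for Zbp1 and 0.0290 for Trim25, against 2.06% of genes below 0.05. It gave no adjusted p below 0.05 to the members in the nonobese response or in the diet comparison under isotype. The median log2 fold change of the members was -0.19 in the nonobese response, where the median of all genes was 0.02, and 0.43 in the obese response, where that of all genes was -0.01. It was 0.02 against 0.01 between diets under isotype and 0.50 against -0.01 between diets under anti–PD-1. For the difference of responses it was 0.52 against -0.04, with 9 of 10 members above 0.

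**Figure D2:**
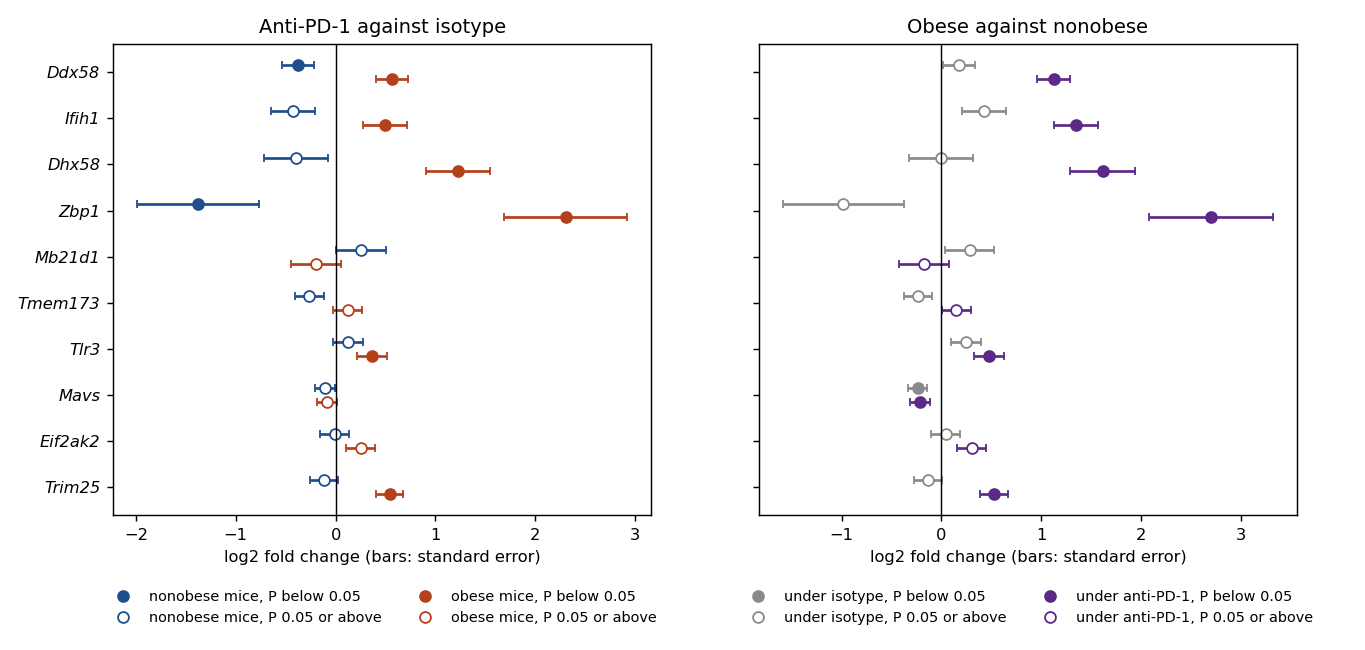
Log2 fold changes of the 10 members with standard errors from edgeR, for the 2 antibodies compared within each diet (left) and obese against nonobese in each treatment (right), with filled points for an unadjusted P below 0.05. Zbp1 moves from -1.38 in nonobese to 2.31 in obese mice, while Mavs stays near 0 in both responses.

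The RIG-I-like receptors are 3 related helicases, and all 3 had their highest group mean in obese mice given anti–PD-1. Ddx58, whose product RIG-I recognizes short double-stranded RNA with a triphosphate end, lies at chr4:40203773-40239828. It measured 32.8, 31.5 and 32.4 CPM in the nonobese isotype tumors, 25.3, 25.9 and 23.2 CPM in the nonobese anti–PD-1 tumors, 41.0, 30.3 and 38.0 CPM in the obese isotype tumors and 39.3, 61.9 and 60.9 CPM in the obese anti–PD-1 tumors. The nonobese groups were tight and separate, with every treated tumor below every isotype tumor. In obese mice, 2 treated tumors stood well above the rest, while the lowest treated tumor fell among the isotype tumors. Ddx58 was lower with anti–PD-1 in nonobese mice past an unadjusted P of 0.05, with a log2 fold change of -0.38 (SE 0.16, edgeR FDR = 0.924). It was higher in obese mice by 0.57 on the log2 scale (SE 0.16, FDR = 0.309), and the responses differed by 0.94 (SE 0.23, FDR = 0.122). Between diets the log2 fold change was 0.18 under isotype (SE 0.16, FDR = 0.641) and 1.12 under anti–PD-1 (SE 0.16, FDR = 0.0173), where it ranked 7 of 13095 genes by P and the groups did not overlap.

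The Ddx58 call between diets held an FDR below 0.05 in 16 of 21 alternative analyses. The FDR was 0.151 with only the 6 tumors compared. Leaving out the nonobese anti–PD-1 tumors 1 or 2 gave 0.0928 and 0.130, and leaving out the obese anti–PD-1 tumors 2 or 3 gave 0.0821 and 0.119. The lower level of Ddx58 in treated nonobese tumors passed an unadjusted P of 0.05 in 14 of 21, and was lost without any of the 6 nonobese tumors, with log2 fold changes from -0.41 to -0.35, and with the replicate number as a block (-0.38).

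Ifih1, whose product MDA5 binds long double-stranded RNA, lies at chr2:62595798-62646255. It measured 12.3, 11.1 and 12.7 CPM in the nonobese isotype tumors, 8.74, 8.41 and 9.68 CPM in the nonobese anti–PD-1 tumors, 15.2, 12.5 and 20.6 CPM in the obese isotype tumors and 15.4, 28.3 and 24.4 CPM in the obese anti–PD-1 tumors. The treated nonobese tumors were all below the isotype ones, and the treated obese tumors overlapped with theirs. The log2 fold change with anti–PD-1 was -0.43 in nonobese mice (SE 0.22, edgeR FDR = 0.929) and 0.50 in obese mice (SE 0.22, FDR = 0.631), a difference of 0.92 (SE 0.31, FDR = 0.241). Between diets it was 0.43 under isotype (SE 0.22, FDR = 0.409) and 1.35 under anti–PD-1 (SE 0.22, FDR = 0.0264), with no overlap in the latter. That FDR was below 0.05 in 12 of 21 alternatives, and rose to at most 0.212, without nonobese anti–PD-1 tumor 2. The other losses were at 0.139 without nonobese anti–PD-1 tumor 1, 0.159 and 0.162 without obese anti–PD-1 tumors 2 and 3, 0.0513 and 0.0566 without nonobese isotype tumors 2 and 3, 0.0599 without obese isotype tumor 1, 0.157 with only the tumors compared and 0.0505 without TMM factors. The rise in obese mice passed an unadjusted P of 0.05 in 15 of 21, and did not without obese anti–PD-1 tumor 2 (log2 fold change 0.32) or 3 (0.45) or obese isotype tumor 1 (0.47) or 2 (0.36), with only the tumors compared (0.51) or without TMM factors (0.47).

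Dhx58 encodes LGP2, a helicase without a signaling domain that adjusts the output of the other 2 receptors, and lies at chr11:100694884-100704271. It measured 5.46, 7.64 and 8.69 CPM in the nonobese isotype tumors, 3.96, 4.95 and 7.58 CPM in the nonobese anti–PD-1 tumors, 9.63, 5.95 and 5.97 CPM in the obese isotype tumors and 10.4, 23.4 and 16.7 CPM in the obese anti–PD-1 tumors. All 3 treated obese tumors were above every other tumor of the study, whereas the nonobese groups overlapped. The log2 fold change was 1.22 in obese mice (SE 0.32, edgeR FDR = 0.266) and -0.40 in nonobese mice (SE 0.32, FDR = 0.929), and the responses differed by 1.62 (SE 0.45, FDR = 0.168). Without obese anti–PD-1 tumor 2 the log2 fold change in obese mice was 0.92, short of a fold change of 2. Between diets it was 0.00 under isotype (FDR = 0.996) and 1.62 under anti–PD-1 (SE 0.32, FDR = 0.0537). The last value missed the adjusted threshold by a small margin and passed it in 7 of 21 alternatives, among them the fit with the replicate number as a block (FDR = 0.0458).

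Zbp1 encodes a sensor of left-handed Z-form RNA and DNA that can start necroptosis through RIPK3, and lies at chr2:173206612-173218923. It measured 4.18, 7.85 and 9.94 CPM in the nonobese isotype tumors, 1.32, 2.26 and 4.82 CPM in the nonobese anti–PD-1 tumors, 5.59, 2.38 and 2.91 CPM in the obese isotype tumors and 4.37, 30.7 and 19.3 CPM in the obese anti–PD-1 tumors. The first obese anti–PD-1 tumor lay within the range of the isotype tumors, and the other 2 were the highest of the 12. The groups overlapped in every comparison of Zbp1, including that between diets under anti–PD-1. Zbp1 nevertheless had the largest fitted changes of the members. The log2 fold change with anti–PD-1 was -1.38 in nonobese mice (SE 0.61, edgeR FDR = 0.924) and 2.31 in obese mice (SE 0.61, FDR = 0.281). The difference of responses was 3.68 (SE 0.86, FDR = 0.122). Between diets the values were -0.98 under isotype (SE 0.60, FDR = 0.488) and 2.70 under anti–PD-1 (SE 0.62, FDR = 0.0952). The value under isotype passed an unadjusted P of 0.05 in 2 of 21 alternatives, among them that with only the tumors compared (-1.01). Without obese anti–PD-1 tumor 2, the log2 fold change in obese mice was 1.71 and that between diets under anti–PD-1 was 2.09, both still past an unadjusted P of 0.05. The difference of responses was then 3.09, and without nonobese anti–PD-1 tumor 3 it was 4.32, with -2.01 for the nonobese response and 3.34 between diets under anti–PD-1. The fall in nonobese mice passed an unadjusted P of 0.05 in 12 of 21 alternatives, and did not without nonobese anti–PD-1 tumor 1 (log2 fold change -1.05) or 2 (-1.23), nonobese isotype tumor 2 (-1.31) or 3 (-1.10), obese anti–PD-1 tumor 3 (-1.38) or obese isotype tumor 3 (-1.38). The fall also missed that threshold under DESeq2 (-1.39), without TMM factors (-1.32) and with a robust prior (-1.38).

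**Figure D3:**
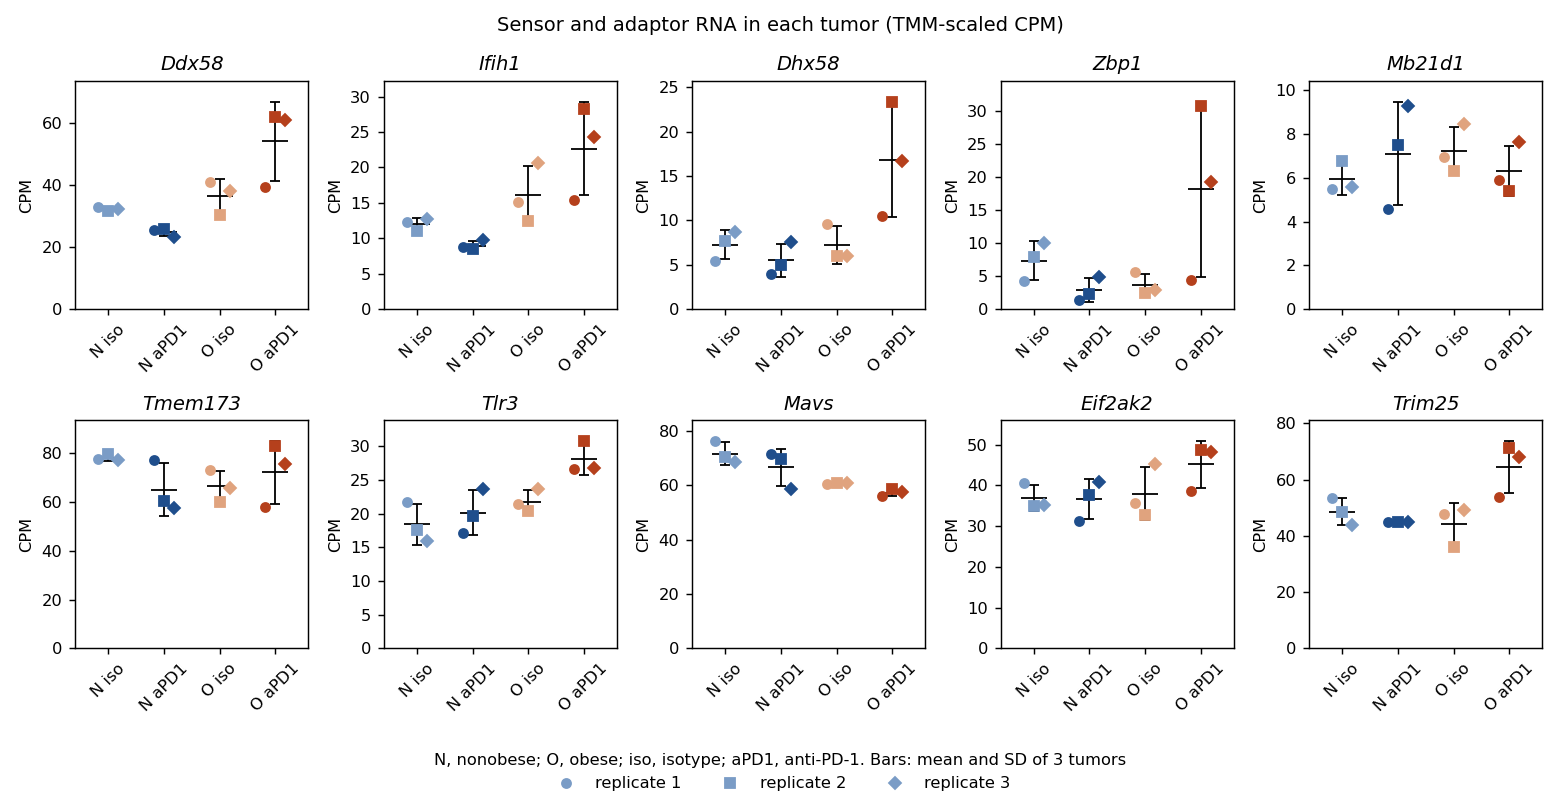
CPM of each member in the 12 tumors, on linear axes from 0, with a symbol for each replicate number and black bars for the group mean and SD of 3 tumors. Replicates 2 and 3 of the obese anti–PD-1 group stand above replicate 1 for Ddx58, Ifih1, Dhx58, Zbp1 and Trim25, whereas the tumors of Mavs lie within 1.36-fold of each other.

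In the DNA route, neither Mb21d1 nor Tmem173 had an unadjusted P below 0.05 in any of the 5 comparisons. Mb21d1, which encodes the DNA sensor cGAS, lies at chr9:78430526-78443237. It measured 5.49, 6.79 and 5.57 CPM in the nonobese isotype tumors, 4.57, 7.48 and 9.27 CPM in the nonobese anti–PD-1 tumors, 6.94, 6.30 and 8.45 CPM in the obese isotype tumors and 5.92, 5.41 and 7.62 CPM in the obese anti–PD-1 tumors. The 4 groups overlapped throughout. Its log2 fold change with anti–PD-1 was 0.26 in nonobese mice (SE 0.25, edgeR FDR = 0.935) and -0.19 in obese mice (SE 0.25, FDR = 0.890), signs opposite to those of the RIG-I-like receptors, and the difference of responses was -0.45 (SE 0.35, FDR = 0.610). Without nonobese anti–PD-1 tumor 1, the nonobese response (0.49) and the difference of responses (-0.67) passed an unadjusted P of 0.05.

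Tmem173, which encodes STING, the receptor for the cGAS product, is the most abundant member per kilobase. It measured 77.5, 79.6 and 77.2 CPM in the nonobese isotype tumors, 77.4, 60.5 and 57.5 CPM in the nonobese anti–PD-1 tumors, 73.3, 60.2 and 65.6 CPM in the obese isotype tumors and 58.0, 83.0 and 75.4 CPM in the obese anti–PD-1 tumors. The obese isotype tumors were all below the nonobese isotype tumors, and the other groups overlapped. Of the members, Tmem173 and Mavs were the 2 of 10 with that order between isotype groups, against 9.02% of all genes. For Tmem173 the log2 fold change was -0.26 in nonobese mice (SE 0.14, edgeR FDR = 0.929) and 0.12 in obese mice (SE 0.14, FDR = 0.881), with a difference of 0.38 (SE 0.20, FDR = 0.451), and -0.23 between diets under isotype (SE 0.14, FDR = 0.486). In alternative analyses Tmem173 passed an unadjusted P of 0.05 in the nonobese response without nonobese anti–PD-1 tumor 1 (-0.41) and with only the tumors compared (-0.28), which also held under isotype (-0.26). The difference of its responses passed without nonobese anti–PD-1 tumor 1 (0.54), obese anti–PD-1 tumor 1 (0.54) or obese isotype tumor 1 (0.48).

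Tlr3, the endosomal receptor for double-stranded RNA that signals through TRIF instead of MAVS, lies at chr8:45395665-45411080. It measured 21.7, 17.6 and 15.9 CPM in the nonobese isotype tumors, 17.1, 19.7 and 23.7 CPM in the nonobese anti–PD-1 tumors, 21.4, 20.4 and 23.7 CPM in the obese isotype tumors and 26.6, 30.8 and 26.8 CPM in the obese anti–PD-1 tumors. The obese anti–PD-1 tumors were the 3 highest of the 12, and the other groups overlapped. The log2 fold change with anti–PD-1 was 0.36 in obese mice (SE 0.15, edgeR FDR = 0.600) and 0.13 in nonobese mice (SE 0.15, FDR = 0.945). The first had an unadjusted P below 0.05 and the second did not, but the responses did not differ detectably, at 0.24 (SE 0.21, FDR = 0.662). Between diets under anti–PD-1 it was 0.48 (SE 0.15, FDR = 0.233). The rise in obese mice passed in 17 of 21 alternatives, and did not without obese anti–PD-1 tumor 2 (log2 fold change 0.30), obese isotype tumor 1 (0.37) or obese isotype tumor 2 (0.33), or without TMM factors (0.34).

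Mavs, the adaptor on the outer mitochondrial membrane that RIG-I and MDA5 share, was lower in obese mice under both antibodies (unadjusted P below 0.05). The call under anti–PD-1 held in only 9 of 21 alternative analyses. Mavs was the 1 of 10 members lower in each comparison, near the shares of all genes (6.17% under isotype and 4.56% under anti–PD-1). It lies at chr2:131234063-131248025 and measured 76.2, 70.4 and 68.4 CPM in the nonobese isotype tumors, 71.5, 69.6 and 58.6 CPM in the nonobese anti–PD-1 tumors, 60.6, 60.6 and 60.9 CPM in the obese isotype tumors and 55.9, 58.5 and 57.4 CPM in the obese anti–PD-1 tumors. The obese isotype tumors were nearly alike and all below the nonobese isotype tumors, and the obese anti–PD-1 tumors were the 3 lowest of all. Mavs was lower in obese mice by a log2 fold change of -0.24 under isotype (SE 0.10, edgeR FDR = 0.332) and -0.22 under anti–PD-1 (SE 0.10, FDR = 0.466). With anti–PD-1 it was -0.11 in nonobese mice (SE 0.10, FDR = 0.929) and -0.08 in obese mice (SE 0.10, FDR = 0.881), and the difference of 0.02 (SE 0.14, FDR = 0.964) was close to 0. The call under isotype was lost without nonobese isotype tumor 1 (log2 fold change -0.19). The call under anti–PD-1 was lost without any single tumor of that comparison except nonobese anti–PD-1 tumor 3, with log2 fold changes from -0.24 to -0.16, and without any of the 3 nonobese isotype tumors, at -0.22 each. It was also lost with the replicate number as a block (-0.21), with either other filter on low counts (-0.23 and -0.19) and with only the 6 tumors compared (-0.21).

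Eif2ak2 encodes PKR, a kinase that halts translation when it binds double-stranded RNA, and lies at chr17:78852564-78882573. It measured 40.6, 34.9 and 35.3 CPM in the nonobese isotype tumors, 31.3, 37.7 and 40.9 CPM in the nonobese anti–PD-1 tumors, 35.8, 32.8 and 45.3 CPM in the obese isotype tumors and 38.6, 48.7 and 48.2 CPM in the obese anti–PD-1 tumors. All groups overlapped, although 2 of the obese anti–PD-1 tumors were the highest. No comparison had an unadjusted P below 0.05. For Eif2ak2 the log2 fold change was -0.01 in nonobese mice (SE 0.15, edgeR FDR = 0.994) and 0.25 in obese mice (SE 0.15, FDR = 0.711), and 0.30 between diets under anti–PD-1 (SE 0.15, FDR = 0.520). The last passed an unadjusted P of 0.05 in 4 of 21 alternatives, with at least 10 counts in every tumor (0.33) and without nonobese anti–PD-1 tumor 3 (0.41), obese anti–PD-1 tumor 1 (0.41) or obese isotype tumor 3 (0.30). The obese response passed in 2 of 21, without obese anti–PD-1 tumor 1 (0.37) or obese isotype tumor 3 (0.41). Its promoter window holds 2 overlapping ISRE cores, as printed above, so a match in the window did not go with a passing change in every member that has one.

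Trim25, a ubiquitin ligase that promotes RIG-I signaling, lies at chr11:88999376-89020293. It measured 53.5, 48.6 and 43.8 CPM in the nonobese isotype tumors, 44.8, 44.8 and 44.9 CPM in the nonobese anti–PD-1 tumors, 47.8, 35.9 and 49.2 CPM in the obese isotype tumors and 54.0, 71.3 and 68.1 CPM in the obese anti–PD-1 tumors. The 3 obese anti–PD-1 tumors were the highest of the 12. For Trim25 the log2 fold change with anti–PD-1 was 0.54 in obese mice (SE 0.14, edgeR FDR = 0.250) and -0.12 in nonobese mice (SE 0.14, FDR = 0.943), a difference of 0.66 (SE 0.20, FDR = 0.184). Between diets it was -0.13 under isotype (SE 0.14, FDR = 0.694) and 0.52 under anti–PD-1 (SE 0.14, FDR = 0.145).

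Counted by overlap alone, Ddx58 and Ifih1 were the 2 of 10 members with every treated nonobese tumor below every isotype one, against 5.37% of all genes. In obese mice, 3 of 10 had every treated tumor above every isotype one (Dhx58, Tlr3 and Trim25), against 5.45%, and 1 of 10, Mavs, had every treated tumor below every isotype one, as did 916 of the 13095 genes. Between diets under anti–PD-1, 5 of 10 were higher without overlap (Ddx58, Ifih1, Dhx58, Tlr3 and Trim25), against 6.54%, and Mavs was lower, against 7.06%. The calls on Ddx58, Dhx58, Zbp1 and Trim25 in obese mice and on all 6 higher members between diets under anti–PD-1 kept an unadjusted P below 0.05 in each of 21 alternatives. Those on the 5 members whose responses differed kept it in each of 20.

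Part of the pattern followed single tumors. Obese anti–PD-1 tumor 2 was the highest of the 12 for 8 members, all but Mb21d1 and Mavs. Obese anti–PD-1 tumor 1 was the lowest of its group for 9 members, all but Mb21d1, and was above all 3 obese isotype tumors for 3 of the 10. It was above all 3 nonobese anti–PD-1 tumors for 5. Nonobese anti–PD-1 tumor 1 was the lowest of the 12 for 4 members (Dhx58, Zbp1, Mb21d1 and Eif2ak2).

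Marker sums of T cells and macrophages were lower in obese anti–PD-1 tumor 1 than in tumors 2 and 3 of that group. The summed level of 9 T cell markers was 5.62 to 8.38 CPM in the nonobese isotype, 5.24 to 6.62 CPM in the nonobese anti–PD-1 and 5.53 to 7.40 CPM in the obese isotype tumors. In the obese anti–PD-1 tumors 1, 2 and 3 it was 8.25, 21.2 and 19.5 CPM, the same order of low and high as for Zbp1 and Ddx58. The summed level of 7 macrophage markers was 191.6 to 418.1 CPM in the nonobese isotype, 136.0 to 174.3 CPM in the nonobese anti–PD-1, 140.9 to 269.4 CPM in the obese isotype and 206.1 to 446.5 CPM in the obese anti–PD-1 tumors. This sum was 420.1 CPM in obese anti–PD-1 tumor 2 and 418.1 CPM in nonobese isotype tumor 2, where Zbp1 was 30.7 and 7.85 CPM. At an unadjusted P below 0.05 from edgeR, 6 of 7 macrophage markers were lower with anti–PD-1 in nonobese mice, 4 of 7 were higher in obese mice and the response differed for 7 of 7. Of the 9 T cell markers, 7 passed the filter and 5 of these were higher in treated than in isotype-treated obese mice. Between diets under anti–PD-1, the comparison that held the FDR calls on Ddx58 and Ifih1, 6 of 7 macrophage markers (median log2 fold change 1.28), 6 of 7 T cell markers (3.14), 5 of 5 adipocyte markers (3.53) and 3 of 5 fibroblast markers (1.40) were higher in obese mice and none was lower. The difference of responses was upward for 6 of 7 T cell, 5 of 5 adipocyte and 4 of 5 fibroblast markers. Under isotype, 3 of 7 macrophage, 1 of 7 T cell, 2 of 5 adipocyte and 1 of 5 fibroblast markers were lower in obese mice and none was higher. None of the T cell or macrophage markers was at 0 in all tumors of a group.

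Other host cells differed too. Dendritic cell markers summed to 7.40 to 17.4 CPM in the obese anti–PD-1 tumors and 6.85 to 8.74 CPM in the obese isotype tumors, with 1 of the 3 tested markers higher. Adipocyte markers summed to 31.3 to 64.4 CPM and 15.1 to 22.0 CPM in the same groups, with 5 of 5 higher. In obese anti–PD-1 tumors 1, 2 and 3 the adipocyte sum was 56.6, 31.3 and 64.4 CPM. It was thus lowest in the tumor of that group that was highest for 8 members. Fibroblast markers ranged from 108.1 to 1893 CPM across all 12 tumors, with 4 of 5 lower with anti–PD-1 in nonobese mice. Endothelial markers ranged from 77.3 to 158.6 CPM and skeletal muscle markers from 4.93 to 531.7 CPM. The summed markers of NK cells, B cells, neutrophils and keratinocytes reached at most 2.71, 5.93, 4.29 and 8.14 CPM in any tumor, and the NK cell markers Klre1 and Ncr1 were at 0 in all tumors of at least 1 group. In these bulk tumors, fewer cells of a type and less RNA per cell cannot be told apart, and the part of host cells in the members' values was not tested.

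**Figure D4:**
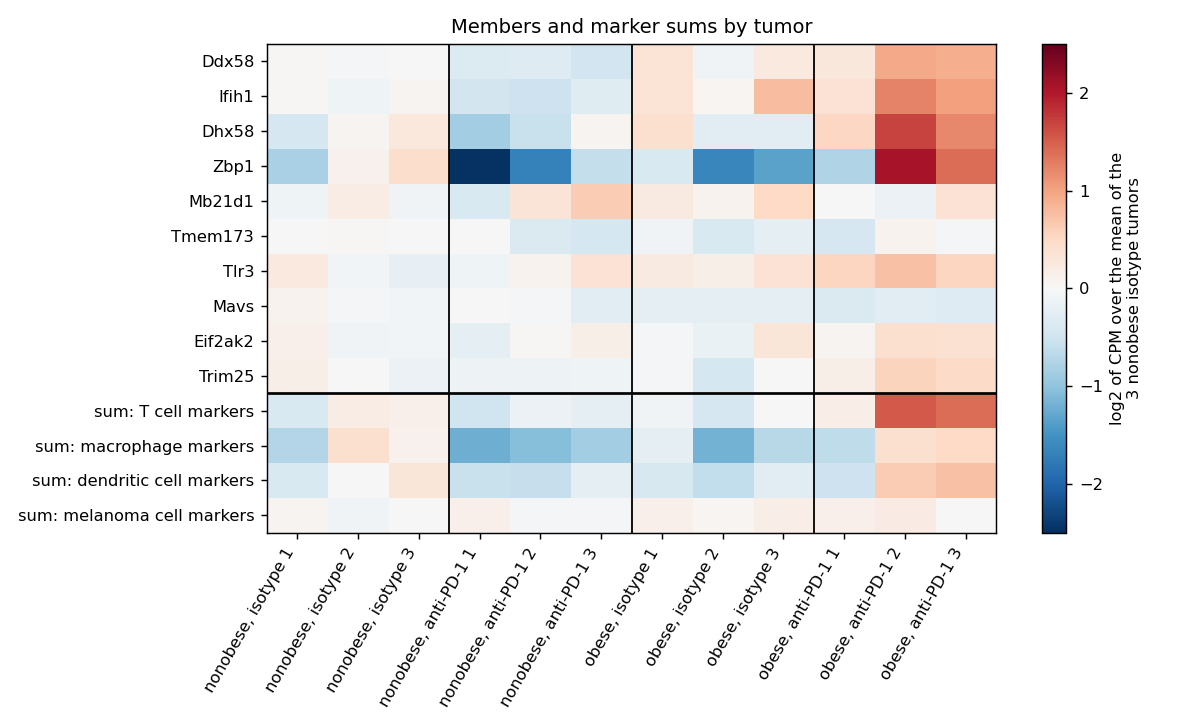
Heat map of log2 CPM relative to the mean of the 3 nonobese isotype tumors for the 10 members (above the line) and for summed markers of 4 cell types (below), in each of 12 tumors. Zbp1, Dhx58 and the T cell and macrophage sums are highest in obese anti–PD-1 tumors 2 and 3, and the melanoma sum stays between 24720 and 30283 CPM.

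The genes whose log2 CPM most resembled each member over the 12 tumors were listed as a description. All points share the same libraries, and a high value can come from a few tumors. For Zbp1 these were Oasl2 (Pearson r = 0.987), Irf8 (0.984) and Slamf8 (0.974), and for Dhx58 they were Ddx60 (0.966), Usp18 (0.964) and Xaf1 (0.960). Ddx58 was closest to Ifit3 (0.935), Ikzf3 (0.932) and Angptl4 (0.928), and Ifih1 to Ifit1 (0.945), Ikzf3 (0.934) and Ifit3 (0.905). Trim25 was closest to Dtx3l (0.940), Ftsjd2 (0.934) and Lgals3bp (0.924), and Tlr3 to Olfr56 (0.934), Herc6 (0.896) and Ctso (0.885). Oasl2, Usp18, Xaf1, Ifit1 and Ifit3 are known interferon-stimulated genes. For Tmem173 the 3 were Keap1 (0.919), Lmf2 (0.905) and Grn (0.901), for Mavs Gpsm1 (0.911), Taf3 (0.908) and Gtse1 (0.902), for Mb21d1 Zfp236 (0.927), Zfp943 (0.884) and Pask (0.881), and for Eif2ak2 Isoc1 (0.900), Gm4841 (0.883) and Erap1 (0.879). Olfr56, Ikzf3 and Gm4841 were themselves near the floor, with mean levels of 0.278, 0.396 and 0.903 CPM.

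Partners of the members were counted from 5 lists, at an unadjusted P below 0.05 from edgeR. The shares of all genes to read these counts against were 4.30% higher and 3.27% lower in the obese response, 1.64% higher and 3.59% lower in the nonobese response, and 7.01% higher and 5.87% lower in the difference of responses. In the obese response, 2 of 24 tested genes downstream of the RNA sensors were higher and 0 lower, with Irf7 and Nlrc5 past a fold change of 2. Irf7, a transcription factor for type I interferon genes, measured 7.61, 14.8 and 14.9 CPM in the nonobese isotype, 5.74, 4.89 and 9.14 CPM in the nonobese anti–PD-1, 13.3, 6.71 and 8.36 CPM in the obese isotype and 8.60 CPM in the first and at least 28.0 CPM in the other 2 obese anti–PD-1 tumors. As for Zbp1, the first obese anti–PD-1 tumor stayed among the isotype tumors. Its log2 fold change was 1.23 in obese mice (SE 0.42, FDR = 0.473) and the responses differed by 2.14 (SE 0.60, FDR = 0.168). That list as a whole gave 0 higher and 1 lower of 24 in the nonobese response, and 3 higher and 3 lower in the difference of responses. The 1 of 24 is near the share of all genes.

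Among 26 partners of DNA sensing, 7 were higher and 0 lower in the obese response, and 0 higher and 2 lower in the nonobese response. The response differed upward for 8 and downward for 0. The genes that moved included Ifi204 and Pyhin1 of the interferon-inducible p200 family, which lie in a cluster of similar genes where reads may be shared, so their values are uncertain. Ifi204 measured 3.44, 6.97 and 7.21 CPM in the nonobese isotype, 1.63, 1.95 and 5.13 CPM in the nonobese anti–PD-1, 4.63, 3.01 and 3.87 CPM in the obese isotype and 5.29, 12.4 and 9.31 CPM in the obese anti–PD-1 tumors. Every treated obese tumor was above every obese isotype tumor, and the nonobese groups overlapped. Its log2 fold change was -1.01 in nonobese mice (SE 0.44, FDR = 0.924) and 1.23 in obese mice (SE 0.44, FDR = 0.486).

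Of 12 endosomal Toll-like receptors and partners, 3 were higher and 2 lower in the obese response and 0 higher and 4 lower in the nonobese response. Tlr9, a receptor for unmethylated DNA, was low, at 0.867, 3.38 and 3.01 CPM in the nonobese isotype, 0.407, 0.371 and 0.758 CPM in the nonobese anti–PD-1, 0.715, 0.210 and 1.62 CPM in the obese isotype and 0.564, 5.16 and 4.97 CPM in the obese anti–PD-1 tumors. Its treated nonobese tumors were all below the isotype ones, and its obese groups overlapped through treated tumor 1. The log2 fold changes were -2.23 (SE 0.79, FDR = 0.841) and 2.04 (SE 0.77, FDR = 0.533), and the responses differed by 4.27 (SE 1.11, FDR = 0.140). Tlr7, which binds single-stranded RNA, gave -1.26 (SE 0.42, FDR = 0.833) and 1.00 (SE 0.42, FDR = 0.611) in the same comparisons.

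Of 18 genes of the Z-RNA, PKR and OAS effectors, 6 were higher and 1 lower in obese mice and 0 higher and 4 lower in nonobese mice. Oasl1 and Oasl2, relatives of the oligoadenylate synthetases, had the smallest P values among the rises, with log2 fold changes of 1.23 (SE 0.35, FDR = 0.318) and 1.77 (SE 0.47, FDR = 0.281). The largest log2 fold change among the 6 was that of Oas3, at 1.82 (SE 0.64, FDR = 0.486). The list of interferons, their receptors and genes downstream had 12 of 16 genes tested. In the obese response 4 were higher and 0 lower, and in the nonobese response 0 were higher and 0 lower. Isg15, a ubiquitin-like protein induced by interferon, was higher in obese than nonobese anti–PD-1–treated tumors by a log2 fold change of 1.30 (SE 0.27, FDR = 0.0593). The interferon genes on the list (Ifnb1, Ifng, Ifna4 and Ifna2) were at or near the limit of detection, and other interferon genes were not on it. Ifnb1 had 8 counts over all 12 tumors and none in any anti–PD-1–treated tumor. Ifna4 and Ifna2 had 0, where a count of 0 allows up to 3 counts. Ifng had 28 counts. Per tumor these were 0 to 2 in the nonobese isotype and 0 to 4 in the nonobese anti–PD-1 group. They were 0 to 1 in the obese isotype and 1 to 12 in the obese anti–PD-1 group. Between diets under anti–PD-1, where 5.71% of all genes were higher, the lists held 3 of 24, 9 of 26, 5 of 12, 7 of 18 and 6 of 12 genes that were higher, in the order given above. In the same comparison 2, 0, 0, 1 and 0 were lower, against 4.56% of all genes, and with the replicate block the first list held 3 genes in either direction instead of 5. In the obese response their median log2 fold changes were -0.02, 0.15, 0.15, 0.31 and -0.03, where that of all genes was -0.01. Over the 5 lists, no gene had an FDR below 0.05 in any of the 5 comparisons.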

How the data were processed

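RNA of 12 B16-F10 tumors was sequenced from stranded poly(A) libraries as single reads of 100 bp. Per the submitters' processing notes, the authors used FastQC 0.11.5, STAR 2.7.0f, HTSeq 0.9.1 and edgeR 3.28.1 with mm10, and deposited raw counts per gene, without normalization. Whether reads were counted by strand is not given in the sources used here. Genes on the opposite strand overlap 4.31% of the exons of Dhx58, 4.87% of Mb21d1, 7.32% of Tlr3 and up to 3.40% of Eif2ak2, so reads there may be shared. Each of the 12 columns was matched to its tumor by the label, and no 2 columns were identical. The floor of 3 counts for a count of 0 covers counting error only, and reads carried no molecular identifiers. The SDs and standard errors printed here include the spread between tumors.

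Counts were filtered with filterByExpr, scaled by TMM and fitted in edgeR 4.0.16 (R 4.3.3) with 4 group means over all 12 tumors, 8 residual degrees of freedom, and quasi-likelihood F-tests in the earlier form (legacy=TRUE). The common dispersion was 0.0352. P values are unadjusted unless given as FDR, which is the Benjamini-Hochberg value over 13095 genes. The standard error was the log2 fold change divided by the square root of F. With 3 tumors against 3, an exact permutation test could not give a two-sided P below 0.1, so none was used. CPM used TMM-scaled library sizes, and levels per kilobase used GENCODE M21 exon lengths on GRCm38, the assembly of mm10, which also gave the gene coordinates. The members, gene lists and marker lists were chosen with earlier results of these data known. Named genes were the members, the 2 genes per list, direction and comparison with the smallest P past both thresholds (a part of which is given, and 1 item is not reported here), and the 3 genes most like each member. Of the 8 macrophage markers, 7 were matched.

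On simulated counts for the obese response (12929 genes, 200 changed), an FDR below 0.05 recovered 84% of 2-fold and 100% of 3-fold changes, with 6 unchanged genes called. The simulation gave every gene the same dispersion and drew the changed genes from those with higher counts. It therefore checked the code, and does not give the share of real changes that these tumors would reveal. Alternatives were DESeq2 1.42.0, RLE or no scaling factors, 2 other filters, other forms of glmQLFit, a replicate block, only the tumors compared, and leaving out each tumor.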

Additional observations from a re-analysis of the deposited data

Results flagged for a closer look

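By the test of the difference itself in edgeR, the response to anti–PD-1 differed between obese and nonobese mice for 5 of 10 members. This was at an unadjusted P below 0.05, which 7.01% of all genes passed in the same direction. The differences on the log2 scale were 3.68 for Zbp1 (FDR = 0.122), 1.62 for Dhx58 (FDR = 0.168), 0.94 for Ddx58 (FDR = 0.122), 0.92 for Ifih1 (FDR = 0.241) and 0.66 for Trim25 (FDR = 0.184). All 5 fitted log2 fold changes were below 0 in nonobese mice and above 0 in obese mice. Genes selected for a positive difference tend to have these signs, so the signs are no added support. In nonobese mice only the falls of Ddx58 and Zbp1 passed an unadjusted P of 0.05. None of the differences passed edgeR's adjustment over all genes in the main fit. DESeq2's Wald test gave an adjusted p below 0.05 to Ddx58 (0.0117), Zbp1 (0.0231) and Dhx58 (0.0302), against 2.16% of all genes. In edgeR with no filter beyond 1 count, Zbp1 also passed (FDR = 0.0493). With 3 tumors in a group, single tumors were not tested as outliers.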

How the results depend on the processing

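Limits. Each group had 3 tumors, and the members' lower values in nonobese mice rest on few calls. The members with an unadjusted P below 0.05 in the nonobese response numbered 2, but 1 under DESeq2, with library size alone, with a robust prior and with the replicate block, 4 with only the tumors compared, and 0 to 3 when single tumors were left out. Under isotype, the count between diets was 1, but 3 with only the tumors compared and 1 to 3 when single tumors were left out. In the main fit, 5.23% of all genes passed in the nonobese response and 13.3% between diets under isotype. For counts at an unadjusted P, the shares of all genes under the alternative fits are not given here. The median difference of responses over the members was 0.52 on the log2 scale and 0.44 to 0.67 with single tumors left out, the highest without obese anti–PD-1 tumor 1. Counts of members at an unadjusted P below 0.05 in the other 3 comparisons stayed within 1.5 times. The members with an FDR below 0.05 between diets under anti–PD-1 numbered 2, but 5 under DESeq2 (where 2.06% of all genes had it), 4 with no filter beyond 1 count (0.594%), 1 with library size alone (0.0458%), 0 with only the tumors compared and 0 to 5 with single tumors left out. It was 0 without nonobese anti–PD-1 tumor 1 or 2 or obese anti–PD-1 tumor 2 or 3, 1 without nonobese isotype tumor 2 or 3 or obese isotype tumor 1, and 5 without obese anti–PD-1 tumor 1 (1.60%). In the obese response that count was 0, but 2 under DESeq2 (0.802%) and 0 to 2 with single tumors left out. For the difference of responses it was 0, but 3 under DESeq2 (2.16%), 1 with no filter beyond 1 count (0.314%) and 0 to 3 with single tumors left out, both highest counts being without obese anti–PD-1 tumor 1 (0.569% and 1.48%). Members that also passed a fold change of 2 numbered 1 in the nonobese response, but 0 under DESeq2, with library size alone and with a robust prior, and 0 to 1 with single tumors left out. In the obese response they numbered 2, but 1 without obese anti–PD-1 tumor 2, where Dhx58 fell to a log2 fold change of 0.92, and 1 to 2 over all single tumors left out. In the difference of responses they numbered 2, and 2 to 4 with single tumors left out, the highest without obese anti–PD-1 tumor 1. Between diets under isotype they numbered 0, but 1 with only the tumors compared. No called value of a member changed sign. Of the single values of members under the alternatives, 980 kept their side of the threshold, 21 passed it newly (6 each for Tmem173 and Eif2ak2, 4 for Ifih1, 2 each for Mb21d1 and Zbp1 and 1 for Tlr3) and 39 lost it; the cause was not tested. Another scaling moved the median of all genes by at most 0.05.

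Equal replicate numbers went with correlated deviations in some groups and not in others, and the labels do not say what a number shares. The deviations of same-numbered tumors correlated at -0.264 to 0.563, with a mean of 0.13 against -0.06 for different numbers, and 10 of 18 pairs were above 0.1. Every same-numbered pair exceeded 0.1 in 2 of the 6 pairs of groups, namely nonobese with obese anti–PD-1 (0.443, 0.111 and 0.351) and nonobese isotype with obese anti–PD-1, and for 5 of 12 tumors the closest tumor of another group had the same number. With the replicate block, members at an unadjusted P below 0.05 numbered 1 in the nonobese response (Zbp1, with the call on Ddx58 lost) and 6 in the obese response. They numbered 1 and 6 between diets under isotype and anti–PD-1, and 5 in the difference of responses. Without the block, 5.23%, 7.57%, 13.3%, 10.3% and 12.9% of all genes passed in these comparisons, in that order. The shares under the block are not given here. With the block, edgeR's FDR between diets under anti–PD-1 was 0.0199 for Ddx58, 0.0206 for Ifih1 and 0.0458 for Dhx58.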
